A study of Mus musculus with 8 samples.

Results

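The phagocyte NADPH oxidase was followed in lumbar spinal cord microglia through 5 genes. Cybb and Cyba encode gp91phox and p22phox, the membrane pair that forms flavocytochrome b558. Ncf1 and Ncf4 encode the cytosolic subunits p47phox and p40phox, and Rac2 encodes the small GTPase that joins the complex on activation. The members were chosen by gene symbol, and each symbol matched 1 of the 27998 genes counted.

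At rest the enzyme lies in pieces. The membrane pair carries the flavin and haems, and it passes electrons from NADPH to oxygen to make superoxide once phosphorylated p47phox, together with the other cytosolic subunits and a Rac GTPase, docks on it. In phagocytes the burst kills engulfed microbes, and loss of gp91phox, p22phox, p47phox or p40phox causes chronic granulomatous disease. In microglia it is the main inducible source of superoxide and is known from models of neuroinflammation and nerve injury. Cybb is known as the regulated, lineage-restricted subunit, under PU.1 and interferon-responsive factors, whereas p22phox protein is stable only together with its gp91phox partner.

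The data were 8 droplet single-cell libraries of YFP-sorted cells from C57BL/6 mice. All animals were Cx3cr1-yfp-creER/+, which places YFP and a tamoxifen-inducible Cre at a locus active in microglia and also in monocytes and other macrophages. In 4 libraries the mice carried no floxed allele (control), and in the other 4 they were also Tnfaip3 fl/fl (A20 cKO), A20 being the ubiquitin-editing brake on NF-kB signalling that Tnfaip3 encodes. Each genotype had 1 library from naive young adults and 1 each from 1, 2 and 3 days after sciatic nerve transection, the cords of several animals being pooled per library. Every group was thus 1 library without a replicate, and no test between libraries was run. Ranges in brackets after a level or a ratio are 95% intervals that cover counting error only.

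After filtering, 14626 of 14883 barcodes were kept, with 1620481 to 15817426 unique molecular identifiers (UMIs, each marking 1 captured RNA molecule) per library and a median of 2780 to 4274 per kept cell. Control day 3 and the 4 A20 cKO libraries shared 256 barcodes over 10 pairs where 45.6 were expected, and are called the linked libraries. With the other 3 control libraries they had 98 barcodes in common over 15 pairs, fewer than the 129.8 expected. Expected numbers were scaled to the median over all pairs of libraries. Pair by pair, shared over expected was 2.31 to 28.8 within the linked libraries and 0.340 to 3.76 between them and the other 3. These ranges overlap, the 3.76 being control naive with A20 cKO day 1, from 5 shared barcodes. Except on day 3, genotype therefore runs along this split and cannot be told apart from it. All 8 microglial markers, among them P2ry12 and Tmem119, were found in every library, but their sum was not even. It was 17970 to 24672 counts scaled to a common library total (CPM) in the control libraries, 18936 CPM in A20 cKO naive and 11892 to 13722 CPM on A20 cKO days 1 to 3. Choroid plexus markers summed to 0 to 0.071 CPM in control naive, day 1 and day 2 and to 126 to 397 CPM in the linked libraries, and oligodendrocyte markers to 60.1 to 83.3 and 149 to 202 CPM. UMIs of 5 monocyte markers, among them Ccr2, Ly6c2, Plac8 and Chil3, summed to 1.85 to 3.70 CPM in control naive, day 1 and day 2 and to 25.0 to 85.0 CPM in the linked libraries, where Ly6c2 was at 0 in A20 cKO day 2. The part of these other cells in the results was not tested, except where values without cells holding myeloid markers are given. Of 10 neutrophil markers, all but Csf3r, which microglia also express, were at 0 in control naive, whereas 8 to 10 had UMIs in the linked libraries. Tnfaip3 itself was at 6.83 to 25.3 CPM in the control and 42.3 to 67.7 CPM in the A20 cKO libraries, but a 3′ tag need not lie in the floxed part, so this does not check the deletion.

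All 5 genes are protein-coding in GENCODE (build GRCm38). Cybb (ENSMUSG00000015340) lies on the minus strand of chromosome X from 9435252 to 9487771 and Cyba (ENSMUSG00000006519) on the minus strand of chromosome 8 from 122424776 to 122432930. Ncf1 (ENSMUSG00000015950) lies on the minus strand of chromosome 5 from 134220053 to 134229625. Ncf4 (ENSMUSG00000071715, plus strand, 78244801 to 78262580) and Rac2 (ENSMUSG00000033220, minus strand, 78559167 to 78572783) are both on chromosome 15.

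The 250 bases before the transcription start of Cybb, Ncf1 and Cyba are shown because Cybb and Ncf1 had the largest fold range over the libraries among the members, and Cyba the smallest. The sequences are from RefSeq (GRCm38.p6), run 5′ to 3′ in the direction of the gene, and lie at chrX:9469325-9469574, chr5:134229626-134229875 and chr8:122432941-122433190, all on the minus strand. The RefSeq start of Cybb lies 18447 bases inside the GENCODE span of the gene. Capitals mark matches, on either strand, to the interferon-response element, as a pair of GAAA letters with any 2 bases between them, and to the STAT element TTCNNNGAA, which overlap in Ncf1.
Cybb: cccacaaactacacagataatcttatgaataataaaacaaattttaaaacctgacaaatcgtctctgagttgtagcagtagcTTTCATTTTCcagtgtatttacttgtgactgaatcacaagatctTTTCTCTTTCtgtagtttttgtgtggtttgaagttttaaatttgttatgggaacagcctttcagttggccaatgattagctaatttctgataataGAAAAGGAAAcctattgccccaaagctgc
Ncf1: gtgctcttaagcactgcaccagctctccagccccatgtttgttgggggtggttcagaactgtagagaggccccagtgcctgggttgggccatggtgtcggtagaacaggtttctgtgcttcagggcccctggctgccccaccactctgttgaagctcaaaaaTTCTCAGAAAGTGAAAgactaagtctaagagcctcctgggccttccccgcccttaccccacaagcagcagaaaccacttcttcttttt
Cyba: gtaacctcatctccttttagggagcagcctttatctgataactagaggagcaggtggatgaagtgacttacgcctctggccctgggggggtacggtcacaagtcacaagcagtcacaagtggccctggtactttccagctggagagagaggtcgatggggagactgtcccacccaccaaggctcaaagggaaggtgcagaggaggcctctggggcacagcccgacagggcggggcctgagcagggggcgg

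Motifs were searched from 250 bases before to 50 after the start. Cybb held 3 interferon-response pairs, beginning 168, 124 and 29 bases before the start. At least 1 such pair was found in 3.44% of all 32851 RefSeq promoters of this length and 3 or more in 5 of them (0.0152%). Ncf1 held 1 pair and 1 STAT element, the latter being present in 8.30% of promoters. Cyba held neither. The PU.1-type core GAGGAA, present in 28.3% of promoters, occurred once in Cybb, 9 bases past the start and outside the stretch printed, and the NF-kB consensus, present in 8.46%, occurred in none of the 3. These are matches of letters, not shown to be binding sites.

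Cybb, the catalytic subunit, was the member that differed between libraries by far the most. The control libraries had 4.94 CPM (2.13 to 9.73) before injury, 4.41 CPM (3.38 to 5.65) at day 1, 4.74 CPM (3.73 to 5.94) at day 2 and 25.9 CPM (22.4 to 29.9) at day 3. The A20 cKO libraries had 135 CPM (127 to 142) before injury, 154 CPM (141 to 169) at day 1, 247 CPM (229.8 to 266) at day 2 and 273 CPM (254 to 295) at day 3. All 4 A20 cKO libraries were above all 4 control libraries, with a 62.0-fold range from control day 1 to A20 cKO day 3. How many of all genes separate the genotypes in this way was not counted. In the order of levels, A20 cKO day 3 and day 2 did not differ beyond counting error, nor did control naive, day 2 and day 1, whereas every other neighbour did.

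Cyba, the membrane partner, was abundant everywhere and moved little. Control libraries had 1511, 1623, 1936 and 1277 CPM in order of time (naive, then days 1 to 3), and A20 cKO libraries 1339, 1355, 1522 and 1569 CPM. The highest library was 1.52-fold above the lowest, and the genotypes overlapped.

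Ncf1, the organizer subunit p47phox, followed the library split. In the same order it was at 259, 241, 259 and 489.9 CPM in control and at 422, 405, 399 and 373 CPM in A20 cKO. The 5 linked libraries were all above the other 3, with control day 3 the highest of the 8.

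Ncf4, the p40phox subunit that binds a phagosomal lipid, ran the other way. It was at 111, 123, 103 and 74.7 CPM in the control libraries and at 67.5, 80.6, 65.3 and 63.7 CPM in A20 cKO, in the same order. Again the linked libraries did not overlap the other 3, but here they were lower, by up to 1.93-fold between the extremes. The share of all genes that part along the library split as Ncf1 and Ncf4 do was not counted, so this is a description only.

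Rac2, the haematopoietic Rac, was highest during the control response to injury. Control libraries had 169.7, 216, 269 and 219 CPM in order of time, and the level stayed between 160.5 and 179.6 CPM in the A20 cKO libraries. Control naive lay within the A20 cKO range.

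**Figure D1:**
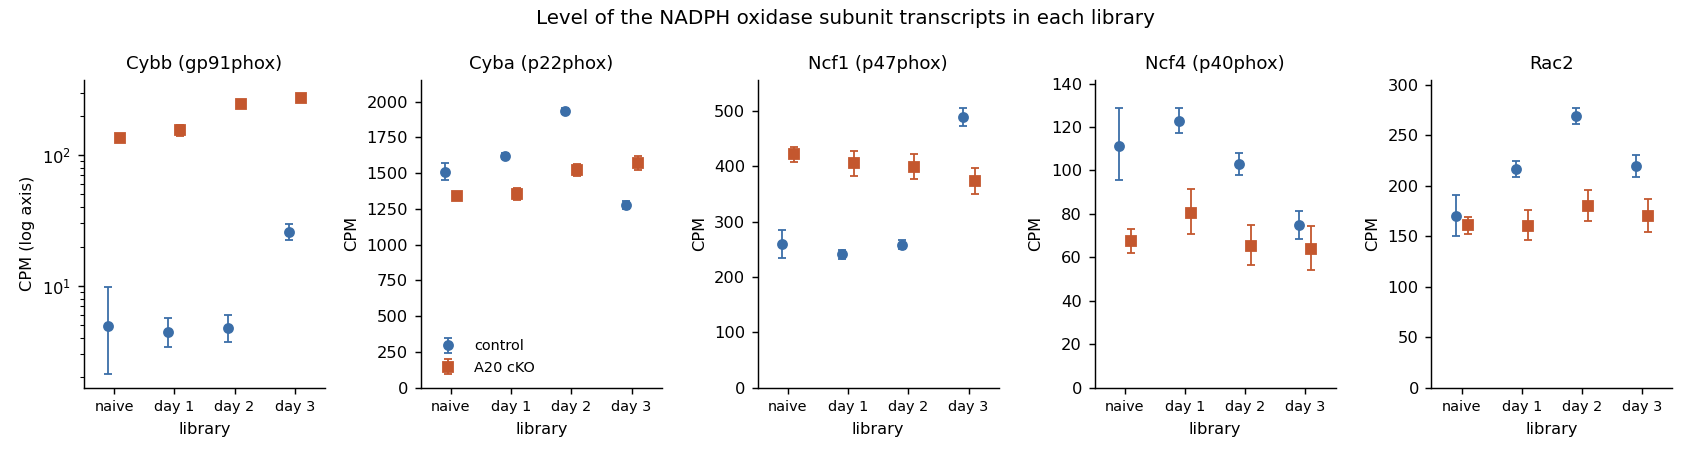
Level of each subunit transcript in CPM (y axis, logarithmic for Cybb and from 0 for the others) by time point (x axis), with circles for control and squares for A20 cKO. Each point is 1 pooled library and bars are exact 95% Poisson intervals. Cybb spans 4.41 to 273 CPM, whereas Cyba spans 1277 to 1936 CPM.

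The first question was whether the oxidase transcripts differed between the genotypes. A gene was counted as past the fold when its level differed at least 1.5-fold either way and it had 100 or more UMIs in both libraries together. On day 3, the one time point at which both genotypes were linked libraries, 1 of 5 members was past the fold, against 14.9% of 8488 genes. This was Cybb, at 273 against 25.9 CPM, a log2 ratio of 3.40 (3.16 to 3.64) or 10.5-fold. A larger difference either way was found in 0.177% of the genes. The other members moved less than 1.5-fold and not together, with log2 ratios of 0.30 (0.24 to 0.35) for Cyba, −0.39 (−0.50 to −0.29) for Ncf1, −0.37 (−0.52 to −0.21) for Rac2 and −0.22 (−0.49 to 0.03) for Ncf4.

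A20 cKO naive against control day 3 also stayed within the linked libraries, but set an uninjured against an injured library. Cybb was again the one member past the fold, against 8.48% of genes, at 135 against 25.9 CPM (log2 ratio 2.37, 2.15 to 2.60). Rac2 was lower at a log2 ratio of −0.45 (−0.55 to −0.34), and Cyba, Ncf1 and Ncf4 differed by 0.07, −0.22 and −0.15.

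Across the split, the genotype differences were larger in number but also more common among all genes. In naive animals 3 of 5 members were past the fold, against 27.8% of genes, on day 1 it was 3 against 40.8% and on day 2 it was 3 against 37.8%. They were each time Cybb and Ncf1, higher in A20 cKO, and Ncf4, lower. Cybb had 1200, 467 and 750 UMIs in the A20 cKO libraries and 8, 62 and 75 in the control libraries. It thus had enough UMIs to be counted only through the libraries where it was high. For Cybb the log2 ratios were 4.68 (3.79 to 5.98), 5.12 (4.74 to 5.53) and 5.70 (5.36 to 6.07) in naive animals, at day 1 and at day 2. For Ncf1 the same ratios were 0.70, 0.75 and 0.63, and for Ncf4 −0.72, −0.61 and −0.65. Control day 3, of the control genotype, also had more Ncf1 and less Ncf4 than the other control libraries, so here genotype and the library split cannot be told apart.

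The second question was how the transcripts differed with time after nerve injury. Within A20 cKO, all libraries being linked, Cybb was the one member past the fold on day 2 and on day 3, against 17.4% and 14.9% of genes, and no member was on day 1, against 12.3%. Its log2 ratios to the naive library were 0.20 (0.04 to 0.35), 0.88 (0.74 to 1.01) and 1.02 (0.89 to 1.16) on days 1, 2 and 3. Cyba was slightly higher on days 2 and 3, by 0.18 (0.14 to 0.23) and 0.23 (0.18 to 0.28), and Ncf1 was lower on day 3 at −0.18 (−0.28 to −0.07). On day 3 the intervals of Ncf4 and Rac2 included 0.

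In the control libraries no member was past the fold on day 1, against 32% of genes, and on day 2 it was Rac2, against 32.8%, with a log2 ratio of 0.66 (0.49 to 0.85). Cybb could not be counted on these days, as it had only 8 UMIs in control naive, 62 on day 1 and 75 on day 2. Cyba was higher on day 2 by 0.36 (0.30 to 0.42). On day 3, which crosses the split, Cybb and Ncf1 were past the fold, against 30.6% of genes. Their log2 ratios were 2.31 (1.39 to 3.63) and 0.92 (0.77 to 1.07), and Ncf4 was just short of the fold at −0.58 (−0.82 to −0.32). Cybb had 189 UMIs in control day 3 and 8 in control naive, so it was counted only through the day 3 library.

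**Figure D2:**
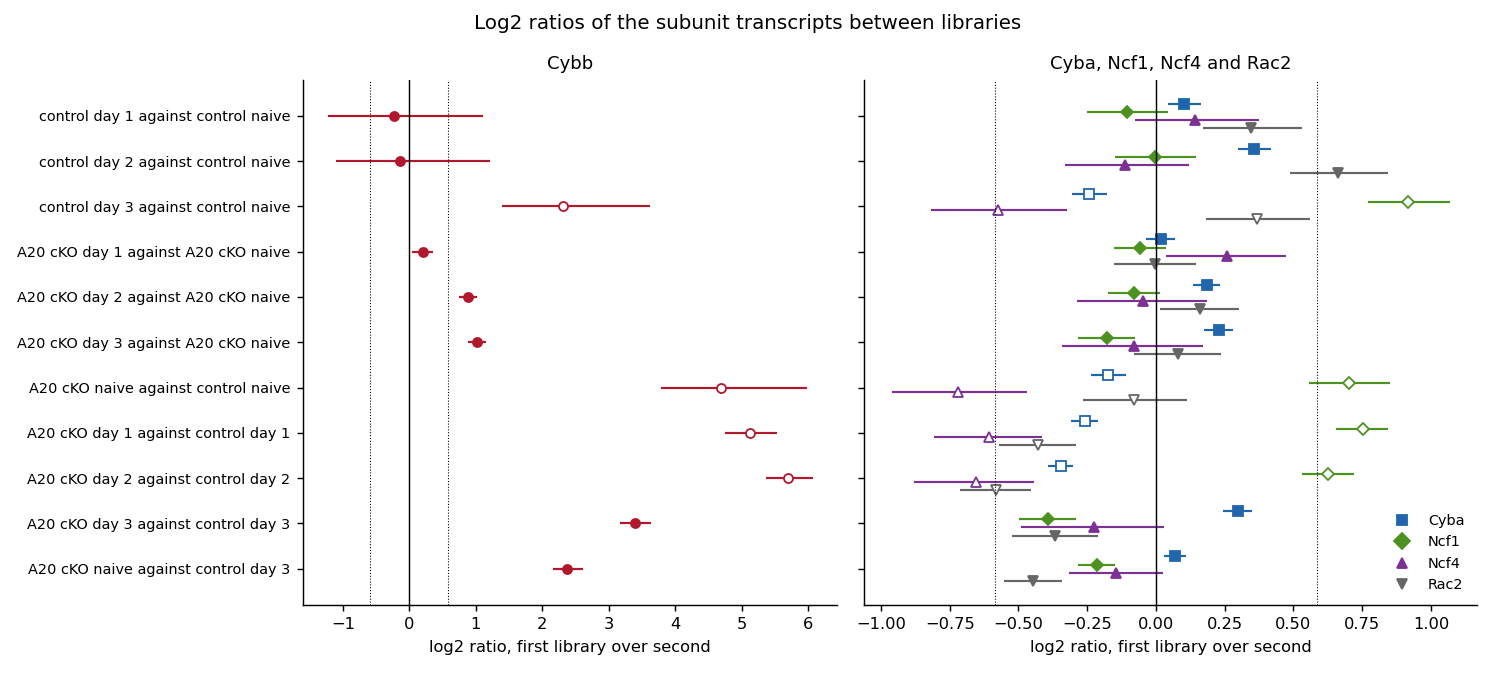
Log2 ratio of CPM between 2 libraries (x axis) for each comparison (y axis), Cybb on the left and the other 4 members on the right on a narrower scale. Lines are exact 95% intervals for counting error, open symbols mark comparisons across the library split, and dotted lines mark 1.5-fold. Cybb reaches 5.70 across the split and 3.40 within it, whereas the other 4 members stay between −0.72 and 0.92.

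The next step asked in how many cells Cybb was found, with each cell thinned to 2000 UMIs so that depth was equal (13691 cells, leaving out 935 shallower ones). In order of time, a UMI of Cybb was found in 0.996%, 0.744%, 0.833% and 3.57% (2.78 to 4.51) of control cells. In A20 cKO the shares were 16.0% (14.6 to 17.5), 18.6% (16.0 to 21.4), 33.4% (29.7 to 37.2) and 34.9% (30.9 to 39.1). Without thinning they ran from 1.41% to 5.72% in control and from 20.4% to 54.5% in A20 cKO. Cells with 3 or more Cybb UMIs made up 4.28% of A20 cKO day 3 and 0.213% of control day 3, and the largest number in 1 cell was 6. In bulk sums such as CPM, more cells with the transcript and more transcript per cell cannot be told apart, and here the share differed along with the sum.

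For a background level, cells with at least 5 summed UMIs of neural, endothelial or choroid plexus markers were used. They also had to hold more UMIs of these than of the 8 microglial markers. There were 28 such cells, all from the linked libraries. Of these, 1 held a Cybb UMI (3.57%, 0.0904 to 18.3), 5 a Cyba UMI, 2 an Ncf1 UMI, 1 a Rac2 UMI and 0 an Ncf4 UMI, which allows a share of up to 12.3%. Their median depth was 1400.5 UMIs, against 3532 over all kept cells. The Cybb shares of all 4 control libraries lay inside that interval, with and without thinning. An interval this wide, resting on 1 cell, cannot decide whether Cybb in control cells was above free RNA. In A20 cKO the thinned share of the naive library also lay inside it and that of day 1 overlapped it, whereas those of days 2 and 3 lay above it. The background cells were shallower than the thinned cells, and none came from control naive, day 1 or day 2. Of the 28, 12 came from control day 3 and the rest from the A20 cKO libraries, where Cybb was higher. In control day 3 the thinned share nevertheless differed between the interferon classes described below, with 6.63% (4.91 to 8.72) of interferon-high and 1.71% (1.05 to 2.63) of other cells.

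Cybb was found in cells that carried microglial markers. Among thinned cells with UMIs of both P2ry12 and Tmem119, 31.3% (26.6 to 36.2) held Cybb in A20 cKO day 3 and 3.07% (2.31 to 3.98) in control day 3. Among cells without any UMI of the other neutrophil, monocyte and border macrophage markers, the shares were 33.0% and 3.65%. Leaving out cells with such a marker, the log2 ratio of Cybb in A20 cKO against control day 3 was 3.53, beside 3.40 over all kept cells. Cells without a P2ry12 UMI, which were 131 of 538 in A20 cKO day 3 and 75 of 1878 in control day 3, held Cybb more often, in 45.0% (36.3 to 54.0) and 14.7% (7.56 to 24.7). The genotype difference was therefore present in cells with both microglial markers, and Cybb was also not limited to them.

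For the other members the thinned shares followed the levels. Cyba was found in 90.2% to 97.9% of cells per library, Ncf1 in 38.6% to 61.0%, Rac2 in 26.4% to 40.9% and Ncf4 in 10.04% to 21.9%. Cells with UMIs of 4 or 5 members made up 1.39% to 3.04% of the control libraries and 4.59% to 7.25% of the A20 cKO libraries. Cybb is among the members counted, and its own share was higher in A20 cKO. In A20 cKO day 3, Cybb and Cyba were found together in 33.8% of cells, beside 32.8% if found independently. Within libraries, the correlation of any 2 members over cells lay between −0.089 and 0.158 with a median near 0 (−0.0015), which in counts this sparse is no finding.

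Cybb is known to respond to interferon, so cells were split by the interferon response. A cell was called interferon-high when at least 3 of 12 interferon-response genes (Ifit1, Ifit2, Ifit3, Isg15, Rsad2, Oasl2, Ifi44, Usp18, Irf7, Rtp4, Ifi204 and Cxcl10) had a UMI after thinning. Such cells made up 3.59%, 1.09%, 1.58% and 37.8% of the control libraries in order of time, and 31.9%, 37.0%, 70.8% and 73.6% of the A20 cKO libraries. Comparing the classes inside each library gave 7 pairs, since control naive had 18 such cells and was left out, and allowed a test with libraries as replicates.

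Cybb was higher in interferon-high cells in 7 of 7 libraries. The fitted log2 difference was 1.73 ± 0.18 (SE of the fit, n = 7), with an adjusted p of 4.7e-10 (edgeR quasi-likelihood test, Benjamini-Hochberg over 9554 genes). With DESeq2 it was 1.83 ± 0.43 (adjusted p = 0.00082), a wider SE. In the edgeR test Cybb was the one member of 5 that passed, whereas of all genes 7.01% passed in either direction and 4.39% as higher. For the other members the log2 difference was 0.13 ± 0.09 for Ncf1, 0.04 ± 0.09 for Cyba, 0.04 ± 0.12 for Ncf4 and −0.03 ± 0.10 for Rac2 (SE, n = 7), with adjusted p-values of 0.47, 0.89, 0.92 and 0.93 in the same edgeR test.

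The size of the Cybb difference was not the same in all libraries. In control day 3 it was at 43.7 CPM in interferon-high and 8.55 CPM in other cells, in A20 cKO naive at 264 and 50.6 CPM, and in A20 cKO day 1 at 270.4 and 54.5 CPM. These are log2 ratios of 2.33 (1.61 to 3.16), 2.38 (2.13 to 2.65) and 2.30 (1.87 to 2.77), with overlapping intervals at different levels. In A20 cKO day 2 the values were 269.8 and 167 CPM and in day 3 they were 269 and 232 CPM, with log2 ratios of 0.69 (0.28 to 1.12) and 0.20 (−0.19 to 0.63). Control day 1 and day 2 gave the same direction from 1 and 4 Cybb UMIs in interferon-high cells.

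Over the A20 cKO time course, Cybb in interferon-high cells was at log2 ratios to the naive library of 0.03 on each day (−0.22 to 0.26 on day 3). In the other cells it was higher by 0.12 (−0.35 to 0.55), 1.73 (1.28 to 2.15) and 2.21 (1.77 to 2.61) on days 1, 2 and 3. These other cells also held more interferon-response transcript later, at 492, 531, 1014 and 1092 CPM summed over the 12 genes in A20 cKO naive, day 1, day 2 and day 3. The part of this in the Cybb result was not tested.

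Cybb was also compared between the genotypes inside each interferon class, all within the linked libraries and with 1 library a group. Interferon-high cells had 5240 CPM of the 12 genes in control day 3, 5221 in A20 cKO naive and 5202 in A20 cKO day 3. In these cells Cybb was 6.01-fold higher in A20 cKO naive, which is uninjured, and 6.12-fold higher in A20 cKO day 3 than in control day 3 (log2 ratios 2.59, 2.21 to 3.00, and 2.61, 2.21 to 3.05). In other cells it was 5.78-fold and 26.7-fold higher, but there the 12 genes summed to 601 CPM in control day 3, 492 in A20 cKO naive and 1092 in A20 cKO day 3, so the 26.7-fold difference was not taken at a like interferon level. In cells with 6 or more of the 12 genes, Cybb was at 77.5 CPM (55.8 to 105) in control day 3 and between 349 and 466 CPM in the 4 A20 cKO libraries. In cells with none of them it was at 9.23 CPM (3.71 to 19.03) in control day 3, 27.5 (19.7 to 37.5) in A20 cKO naive and 19.5 (8.42 to 38.4) in A20 cKO day 1.

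**Figure D3:**
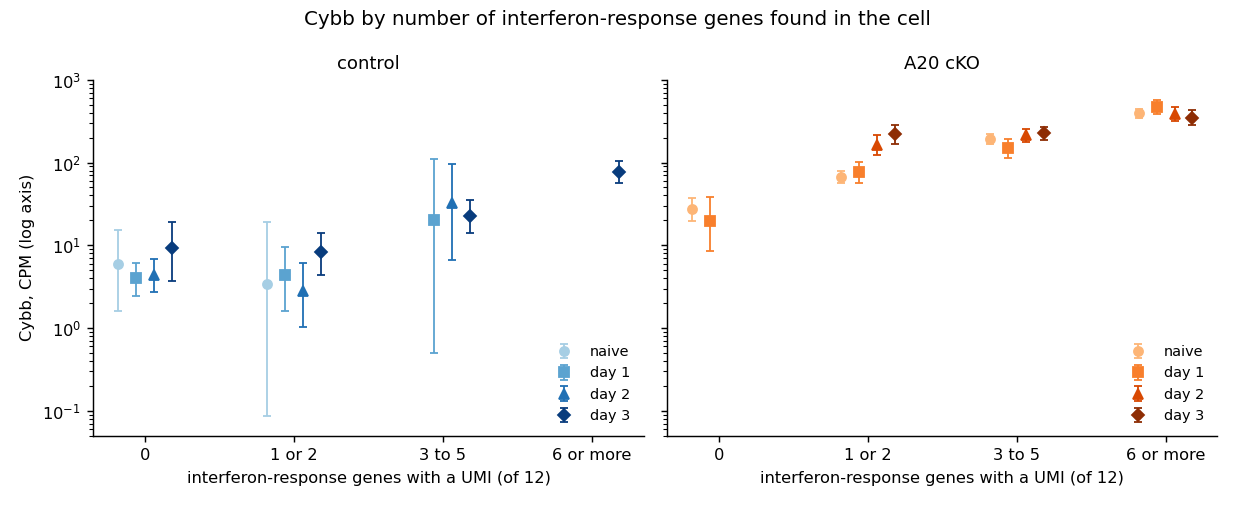
Cybb level in CPM (logarithmic y axis) in cells thinned to 2000 UMIs, grouped by how many of 12 interferon-response genes had a UMI (x axis), control on the left and A20 cKO on the right, 1 symbol per library and bars for exact 95% Poisson intervals. Points are drawn for groups of at least 20 cells. With 6 or more genes Cybb is at 77.5 CPM in control day 3 and at 349 to 466 CPM in A20 cKO.

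Microglia divide after this injury, so the members were also compared between cycling cells (UMIs of 3 or more among 18 core genes of G2 and mitosis, or among 12 core genes of S phase, after thinning) and other cells of the same library. The 7 libraries used had 57 to 733 cycling cells. In the edgeR test over 9705 genes, 3 of 5 members fell, namely Cyba by 0.31 ± 0.06, Ncf1 by 0.35 ± 0.08 and Ncf4 by 0.42 ± 0.13 on the log2 scale (SE, n = 7), with adjusted p-values of 0.00042, 0.0012 and 0.022. Of all genes 18.8% passed in either direction and 8.59% as lower. Cyba and Ncf1 were lower in 7 of 7 libraries and Ncf4 in 6. Without thinning, the edgeR differences were smaller, at −0.15 for Cyba and −0.21 for Ncf1 (adjusted p = 0.011 and 0.0018). Cyba, for instance, was at 1135 CPM in cycling and 1633 CPM in other cells of A20 cKO day 2, and at 1788 and 1968 CPM in control day 2.

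Rac2 did not pass in the same edgeR test (−0.01 ± 0.09, SE, n = 7, adjusted p = 0.98). Cybb was at a log2 difference of 0.39 ± 0.14 (SE, n = 7) with an adjusted p of 0.057 by edgeR, higher in 5 of 7 libraries, and so did not pass. It did pass in edgeR fits with a class of at least 2 genes (adjusted p = 0.043), without thinning (0.049) and in the linked libraries alone (0.010). It also passed by edgeR without control day 1 (0.043), control day 2 (0.030) or A20 cKO day 1 (0.016). It did not pass with DESeq2 (adjusted p = 0.34) or, by edgeR, without the filter on low counts (0.11). Nor did it pass by edgeR without control day 3 (0.068), A20 cKO naive (0.43), A20 cKO day 2 (0.33) or A20 cKO day 3 (0.085). It was at 216 against 114 CPM in A20 cKO naive and 351 against 217 CPM in A20 cKO day 2, but at 106 against 137 CPM in A20 cKO day 1. The Ncf4 call did not hold with other settings: without thinning its log2 difference was −0.07 with an adjusted p of 0.64 (edgeR), and with DESeq2 the adjusted p was 0.11.

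**Figure D4:**
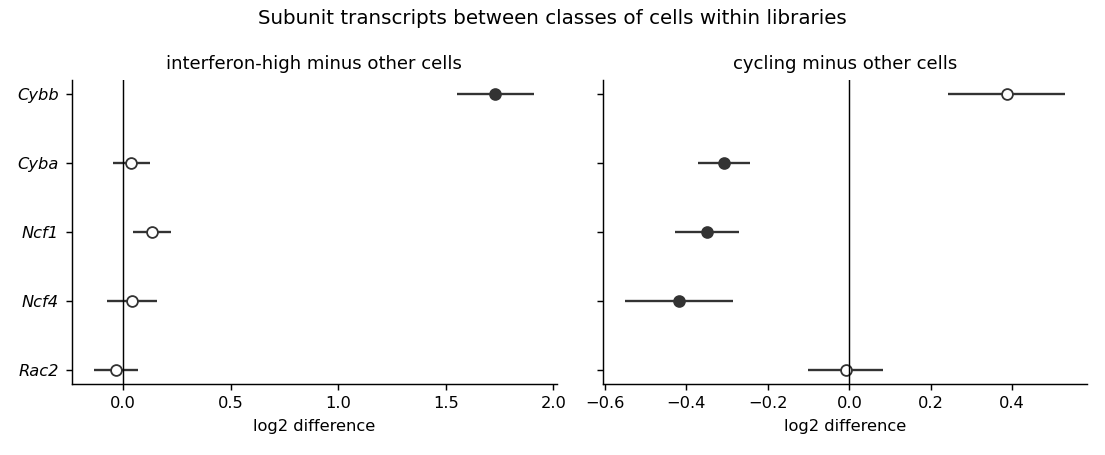
Log2 difference of each member between interferon-high and other cells (left) and between cycling and other cells (right) of the same library, from edgeR over 7 libraries, with bars for the standard error. Filled circles passed an adjusted p of 0.05. On the left Cybb stands at 1.73 and the rest within 0.13 of 0, and on the right Cyba, Ncf1 and Ncf4 lie between −0.31 and −0.42.

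Other genes of the pathway gave the members their setting. Among other oxidase genes with enough UMIs to be counted were BC017643 (the Cybb chaperone EROS) and Hvcn1, the proton channel that balances the charge of the burst. On day 3 Hvcn1 was higher in A20 cKO than in control, at 188 against 101 CPM (log2 ratio 0.90, 0.73 to 1.07). In naive animals it was at 164 against 158 CPM (0.05, −0.14 to 0.25). Control day 3 was below control naive, at a log2 ratio of −0.65 (−0.86 to −0.44). Of the other NADPH oxidase catalytic subunits, Nox3, Nox4 and Duox1 were at 0 in all libraries, where a limit of 3 counts is 0.190 to 1.85 CPM, whereas Nox1 had 0 to 6 UMIs per library and Duox2 had 2 UMIs in A20 cKO naive alone.

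Among transcription factors known to act at Cybb, Spi1, which encodes PU.1, was at 404 to 595 CPM in the control and 358 to 421 CPM in the A20 cKO libraries. Irf8 was past the fold in 0 of 11 comparisons. Between the interferon classes, Irf1, which is itself interferon-induced, passed the edgeR test with a log2 difference of 0.65 ± 0.12 (SE, n = 7, adjusted p = 8.6e-05).

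On day 3, A20 cKO against control, 2 of 15 tested genes for removal of superoxide and peroxide were higher and 1 was lower, beside 14.9% of all genes past the fold (423 higher and 841 lower). Higher were Hmox1, haem oxygenase 1, at 63.4 against 29.5 CPM, and Sod1 at 41.3 against 26.8 CPM. Of 12 GTPases and regulators 0 were higher and 2 lower (Rac3 and Pik3cg), and of 5 NADPH supply genes none was past the fold. Of 7 receptors that trigger the burst, 0 were higher and 2 lower, Fcgr3 at 719.7 against 1342 CPM and C5ar1 at 94.4 against 145 CPM. The list medians were 0.11, −0.15, −0.03 and −0.31 log2, beside −0.12 over all 8488 genes.

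Between cycling and other cells the same lists were counted in the edgeR test, in which 18.8% of all genes passed (992 higher and 834 lower). No test between the lists was run. Of 15 removal genes 2 rose and 0 fell, Txn1 by 0.77 ± 0.12 and Prdx1 by 0.37 ± 0.08 (SE, n = 7, adjusted p = 3.9e-06 and 0.00062). Of the oxidase-related genes, Hvcn1 fell by 0.45 ± 0.11 (SE, n = 7, adjusted p = 0.0025). Of 7 receptors 3 fell and 0 rose, among them Fcgr3 by 0.76 ± 0.08 (adjusted p = 7.3e-10). Of 12 GTPases and regulators 3 fell and 0 rose, and of 5 NADPH supply genes 1 rose, the transketolase gene Tkt.

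Finally, the genes whose level over the 8 libraries was most like each member were listed, by Pearson's r of log2 CPM among the 3260 genes averaging 50 CPM or more. These are descriptions, and the points share the library split. Nearest to Cybb were H2-T22, Cd300lf and Cxcl13 (r = 0.99, 0.99 and 0.98). Nearest to Cyba were Pgam1, C1qa and Fcer1g (r = 0.96, 0.95 and 0.95), to Ncf1 Srrm2, Sgk3 and Zc3h7a (r = 0.996, 0.989 and 0.989), to Ncf4 H13, Spi1 and Tor2a (r = 0.99 each) and to Rac2 S100a13, Prdx2 and Tubb4b (r = 0.99, 0.98 and 0.97). The members were not most like each other, as the r of Cybb with Ncf1 was 0.78 and that of Cybb with Ncf4 −0.93.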

How the data were processed

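Single-cell RNA was measured in 8 libraries of YFP-sorted lumbar cord cells, 1 per group. What the authors deposited are matrices of UMI counts by gene and barcode, raw and not normalized. The submitters' processing notes name Cell Ranger 2.1.1 and mm10. The labels and the study's methods name different versions of the kit. Doublets were excluded at the sort per the methods, and no caller was run here. Groups were taken from the sample labels.

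Barcodes with at least 1000 UMIs, 500 genes and at most 10% mitochondrial UMIs were kept. UMIs were summed by library and scaled to CPM, and 0.5 UMIs were added for log2 ratios. Intervals (95%) were exact Poisson for levels, exact Clopper-Pearson for shares and exact conditional for ratios. They cover counting error only, and no test between libraries was run. Shares and classes used cells thinned without replacement to 2000 UMIs. Classes were compared on UMI sums per library and class, for libraries with at least 20 cells in each, with edgeR 4.0.16 in R 4.3.3 (filterByExpr, TMM, glmQLFit, glmQLFTest, library as a factor, Benjamini-Hochberg adjustment over all genes tested). The same fit was also run on simulated data. Each SE given with an edgeR difference belongs to the fitted coefficient, taken from its F statistic, and is not the spread of the library values. The DESeq2 alternative used version 1.42.0. Class genes stayed in the fit and are not reported as results. Python 3.11.15 with scipy 1.17.1 was used for the rest. Kept cells of a library held 1620481 to 15817426 UMIs, so Cybb, with 8 UMIs in control naive, had the widest intervals. Of 27998 gene identifiers 27722 matched GENCODE M21, which gave coordinates.

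The members and lists were chosen with earlier results of these data known. Named genes are the members, at most 4 genes of each list, and the 3 genes most like each member, and some genes of these lists are not reported here. Promoters were taken from RefSeq, which held 3 of the 5 members. The alternatives were another scaling, other filters on cells and genes, a 2-fold threshold, other thinning, DESeq2, another class rule, the linked libraries alone and leaving out each library.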

Additional observations from a re-analysis of the deposited data

Results flagged for a closer look

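2 members differed from their own naive library in opposite directions in the genotypes on day 3, with both counting intervals clear of 0. Cyba had a log2 ratio to naive of −0.24 in control and 0.23 in A20 cKO, and Ncf1 had 0.92 in control and −0.18 in A20 cKO. The difference between the genotypes was not tested, as each group was 1 library. The control ratio crosses the split between the libraries that share more barcodes than expected and the other 3, and the A20 cKO ratio does not, so genotype and split cannot be told apart here.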

How the results depend on the processing

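Each group was 1 library, which limits every comparison between libraries to counting error. The number of members past 1.5-fold was recomputed in 11 comparisons under 10 alternatives, and 102 of 110 counts stayed within 1.5 times. With a fold of 2 the count became 0 for control day 2 and A20 cKO day 2 against naive, and 1 (Cybb) for control day 3 against naive and for A20 cKO against control in naive animals and on days 1 and 2. With 1000 UMIs required it became 1 (Ncf1) for control day 3 against naive and 0 for A20 cKO against control day 3, Cybb being too low to be counted. Over 7 alternatives, Cybb in A20 cKO against control day 3 stayed between 3.36 and 3.60 on the log2 scale. Of these, leaving out cells with a marker of other myeloid cells and summing thinned cells were added after the data were seen. Of 385 log2 ratios 366 stayed inside their intervals, and none that was past the fold changed sign. Of 120 shares, 40 stayed inside their intervals, as depth sets them.

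Between interferon classes, 670 genes passed with edgeR, 381 with DESeq2, 1407 without thinning and 368 to 740 when a library was left out, 368 being without A20 cKO naive. The Cybb difference was 1.35 to 2.08 log2 (adjusted p 2.6e-16 to 7.6e-07, edgeR), and Cyba (0.01 to 0.08), Ncf1 (0.10 to 0.18), Ncf4 (0.00 to 0.15) and Rac2 (−0.10 to 0.04) did not pass when a library was left out. Between cycling and other cells, 1826 genes passed, 3346 without thinning and 1357 to 1786 when a library was left out. Ncf4 lost its call with DESeq2 (−0.40), a class of at least 2 genes (−0.15), no thinning (−0.069), and without control day 2 or day 3. Left-out ranges were −0.47 to −0.37 for Ncf4, −0.34 to −0.27 for Cyba, −0.40 to −0.33 for Ncf1 and −0.04 to 0.02 for Rac2. With a class of at least 2 genes Cyba was at −0.17 and Ncf1 at −0.21. Cybb passed with a class of at least 2 genes (0.44), without thinning (0.31) and in the linked libraries alone (0.43). It also passed without control day 1, control day 2 or A20 cKO day 1, its left-out range being 0.22 to 0.50. It did not pass with DESeq2 (0.34), without the filter on low counts (0.33), or without control day 3, A20 cKO naive, day 2 or day 3. The cause of these differences was not tested. Between groups, which have 1 library each, replicate numbers pair nothing, and the classes were compared with library as a factor. No paired analysis was possible because of this for comparisons between libraries.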
